A study of Homo sapiens with 12 samples.

Results

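The placental chromosome 19 miRNA cluster was examined in small RNA libraries of Hep3B xenograft tumours. Hep3B is a line from a human hepatocellular carcinoma. The cluster's members were taken by name, as every row of miR-498, miR-512, miR-515 through miR-527, miR-1283 or miR-1323 with any letter, copy or arm suffix, and 29 of the 1451 rows of the count table qualified. The bufotalin group had 3 small RNA libraries and the control group 3, and 3 total RNA libraries of each group gave the mRNA values used near the end. Bufotalin is a bufadienolide of toad venom, a cardiac glycoside that binds the sodium pump; the control group carried the same tumour line with the treatment given as control. The host strain, its age, the dose, the route and the time of treatment are unknown from the sources used here. Nothing in the labels ties replicates to separate animals, and the p-values therefore rest on the spread among these libraries, which may be technical.

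The cluster is a tandem array of primate-specific miRNA genes that arose by repeated duplication, and its hairpins are processed from long transcripts. It is imprinted, with the paternal copy expressed, and in normal adults it is known mainly from the trophoblast of the placenta. Some liver tumours and other cancers express members outside the placenta. Rodents do not have the cluster. A mature miRNA recognizes targets largely through its seed, bases 2 to 8 from the 5′ end, and many members differ from each other by few bases.

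The 29 names were matched to RefSeq (GRCh38.p14), where 28 had a mature sequence and miR-522-3p was placed by its hairpin gene. RefSeq listed 46 hairpin genes of the cluster over 95.8 kb on the plus strand of chromosome 19 (53666679 to 53762430). The sequences of the members that carried most counts are shown first, with the seed in capitals, because copies with the same mature sequence stand at several places and cannot be told apart by a read of that length.
miR-516a-5p: uUCUCGAGgaaagaagcacuuuc
miR-1283: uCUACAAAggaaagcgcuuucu
miR-519c-5p: cUCUAGAGggaagcgcuuucug
miR-519a-3p: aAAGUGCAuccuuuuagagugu
miR-520b-5p: cCUCUACAgggaagcgcuuuc
miR-521: aACGCACUucccuuuagagugu
The next 4 belong to other hairpins of the array and had few or no counts in most libraries; they are shown to compare the seeds.
miR-516b-5p: aUCUGGAGguaagaagcacuuu
miR-520a-3p: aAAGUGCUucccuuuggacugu
miR-512-3p: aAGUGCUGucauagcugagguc
miR-517a-3p: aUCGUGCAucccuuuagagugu
Each of the first 6 had a different seed. In the table given here, no miRNA outside the cluster shared any of those 6 seeds. On GRCh38.p14, plus strand, miR-516a-5p lies at chr19:53756756-53756778 and chr19:53761148-53761170, miR-519a-3p at chr19:53752449-53752470 and chr19:53762397-53762418, and miR-1283 at chr19:53688494-53688515 and chr19:53758245-53758266.

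Copies of the same sequence decide what a name can mean here. The letters of miR-519c-5p stand in 6 hairpins (MIR519C, MIR519B, MIR523, MIR518E, MIR522 and MIR519A1), and those of miR-520b-5p in 2, MIR520B and MIR519A2. In RefSeq the copy in MIR519A2 is called miR-519a-2-5p. miR-1283 comes from MIR1283-1 or MIR1283-2, whose hairpins of 87 bases differ at 6 positions outside the mature arm, shown in capitals.
MIR1283-1: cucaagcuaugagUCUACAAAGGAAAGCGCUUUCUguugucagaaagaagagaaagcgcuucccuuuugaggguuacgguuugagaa
MIR1283-2: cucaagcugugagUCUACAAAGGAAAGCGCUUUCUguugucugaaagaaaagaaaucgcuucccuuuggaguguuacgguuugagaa
MIR1283-1 starts at 53688481 and MIR1283-2 at 53758232. In all, 15 of the 29 names matched more than 1 hairpin. The rows of miR-518f-5p and miR-526a-5p held identical counts in all 6 libraries, with 4 counts in all, so they may be the same reads.

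The libraries held 1869893 to 4197636 counts, and 3 counts, the limit that a count of 0 allows, came to 0.715 to 1.60 CPM, the count divided by the library total and scaled to 1000000. Intervals and this limit cover counting error only. A pair of libraries stood apart in marker miRNAs. Bufotalin replicate 2 held 34779 CPM of the erythroid miR-451a, against 139 to 404 CPM in the other 5 libraries, and its 5 leukocyte rows summed to 249.7 CPM, against 2.95 to 11.8 CPM. Control replicate 3 held 111 CPM over 5 rows of miR-371 and miR-372, miRNAs of pluripotent and germ cells, against 0 to 1.797 CPM elsewhere. miR-371a and miR-371b, whose hairpins lie on opposite strands, held identical counts in pairs of rows. These may be the same reads, so the sum may count them more than once, which was not tested. The liver marker miR-122-5p had 36.4, 35.6 and 15.4 CPM in bufotalin libraries and 23.3, 24.3 and 115.5 CPM in control libraries, low beside the 416 CPM that the leading cluster member averaged. Endothelial miR-126-3p had 1585 to 1974 CPM in bufotalin libraries and 1997 to 2237 CPM in control libraries. The 8 stromal and smooth muscle rows summed to 756, 711 and 720.5 CPM in bufotalin libraries, against 502, 549.7 and 125 CPM in control libraries, without overlap. Most of this was miR-143-3p, whose log2 fold change was 1.19 (adjusted p 0.101 by edgeR), and all 4 tested rows of that list lay above 0, with a median of 1.01. Of all 477 tested miRNAs, 225 lay above 0, and 7.76% were higher with bufotalin without overlap. Control replicate 3, which stood apart, had the lowest stromal sum. Skeletal muscle miR-1-3p had 153, 418 and 56.0 CPM with bufotalin and 90.3, 70.6 and 50.6 CPM in control, with a log2 fold change of 1.68 (adjusted p 0.0947 by edgeR), and its groups overlapped. The other skeletal muscle rows, miR-133a-3p and miR-206, had only 13 and 9 counts in all. The part of host cells or of these libraries in the results below was not tested; values without both libraries are given where they matter.

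The cluster was expressed at a moderate level, and a few members held nearly all of its counts. Summed over the 29 members, it had 981, 888 and 692 CPM in bufotalin libraries, against 916, 1472 and 798 CPM in control libraries. The 95% Wilson intervals of these sums ran from 663 to 724 CPM for the lowest and from 1420 to 1525 CPM for the highest. Group means were 854 ± 147 CPM with bufotalin and 1062 ± 360 CPM in control (SD, n = 3 each), the groups overlapped, and control replicate 2 alone lay above all others. miR-516a-5p, miR-522-3p and miR-1283 together held 93.2% of all member counts. They ranked 121, 147 and 148 by mean CPM in the table. In bulk tumour RNA, fewer cells that express a miRNA and less of it per cell cannot be told apart.

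The members detected throughout shared a position in the array. Just 7 members had counts in all 6 libraries: miR-516a-5p, miR-522-3p, miR-1283, miR-519c-5p, miR-519a-3p, miR-520b-5p and miR-521. Each of these 7 had a copy among the last 8 hairpins at the downstream end, from MIR521-1 to MIR519A2, a stretch of 13.8 kb out of 95.8 kb. Only 1 of the other 22 names, miR-518a-5p with 4 counts in all, also matched a hairpin there (MIR527). Of the 8 members averaging at least 1 CPM, 7 had a copy in this stretch. The exception was miR-516b-5p, which averaged 2.61 CPM with counts in 4 libraries. Names with a copy in this stretch held 99.3% of the cluster's 15265 counts. The stretch was chosen after the values were seen, so no test was made.

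The copies leave part of this open to other hairpins. The sequences of miR-516a-5p and miR-519a-3p matched no hairpin outside the last 8. miR-522-3p was placed there by its hairpin gene alone, and its sequence was not searched for in other hairpins. Together these 3 names held 70.6% of the counts. miR-1283, miR-519c-5p, miR-520b-5p and miR-521 also matched hairpins farther upstream, and their reads could come from those. Names that matched only the other 38 hairpins numbered 21, and together they had 1, 13 and 17 counts in bufotalin libraries and 2, 7 and 61 counts in control libraries. Among them were miR-512-3p and miR-517a-3p, members well known from placenta and maternal blood. miR-512-3p, of the first 2 hairpins, had 0 counts in 5 libraries and 7 in control replicate 3. miR-517a-3p had 0 counts in each bufotalin library and 1, 2 and 3 counts in control libraries, which the depth could not separate.

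**Figure D1:**
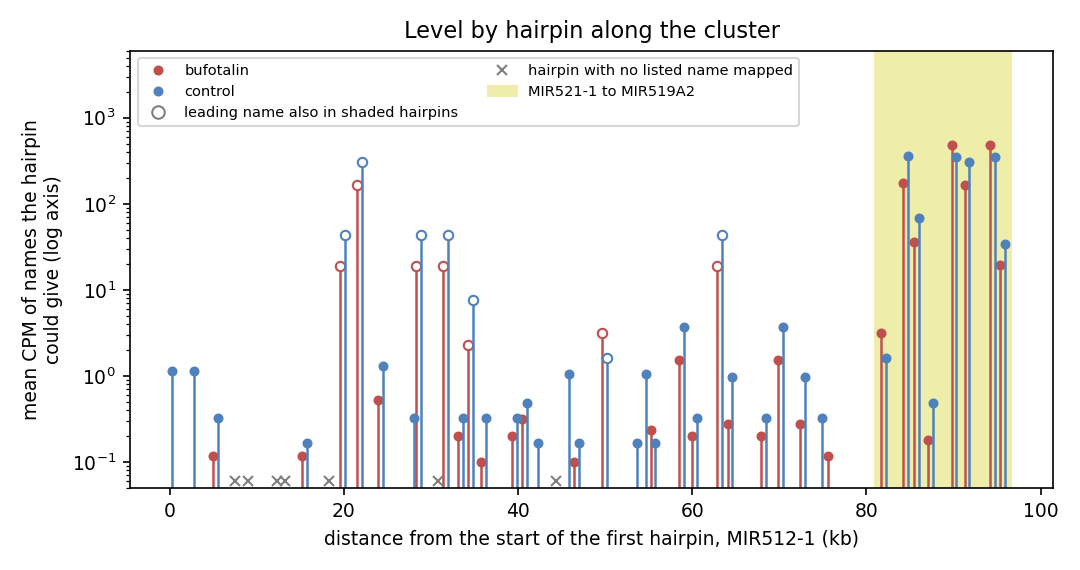
Mean CPM in bufotalin (red) and control (blue) libraries, on a log axis, of the member names that each of 46 RefSeq hairpins could give, against the distance of the hairpin from the first one (kb). Open circles mark hairpins whose leading name also has a copy in the shaded last 8 hairpins, and crosses mark hairpins to which no listed name was mapped; outside the shading, no filled circle exceeds 3.68 CPM.

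The arms of 1 downstream hairpin could be compared. For MIR522, the 3p arm, miR-522-3p, had 3685 counts, while its 5p sequence is that of miR-519c-5p, which had 472 counts. If all reads of that sequence were listed as miR-519c-5p, the 3p arm exceeded the 5p arm whatever the split between hairpins. How reads of identical sequences were assigned to names is unknown from the sources used here. For MIR519A2, shown here with the 5p and 3p arms in capitals, the 3p arm miR-519a-3p had 332 counts, shared with MIR519A1, and the 5p arm listed as miR-520b-5p had 89, shared with MIR520B, so the balance of its arms cannot be told.
MIR519A2: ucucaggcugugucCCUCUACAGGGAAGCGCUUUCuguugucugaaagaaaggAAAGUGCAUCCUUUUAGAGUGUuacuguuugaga
For MIR516A1, the arm listed is the 5p arm, miR-516a-5p.
MIR516A1: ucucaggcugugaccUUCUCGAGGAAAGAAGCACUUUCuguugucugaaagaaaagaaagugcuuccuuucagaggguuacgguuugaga

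The comparison of bufotalin with control tumours asked whether treatment changed these miRNAs. Of the 29 members, 5 passed the filter on low counts and were tested. By the quasi-likelihood test of edgeR, adjusted by Benjamini-Hochberg over 477 miRNAs, none of the 5 was called, while 5.66% of all tested miRNAs were called. At an unadjusted p under 0.05 it had 3 members, miR-522-3p, miR-1283 and miR-519c-5p, where 26.0% of all tested miRNAs reached that level. That count was 1 of 6 tested members without bufotalin replicate 1, 1 of 6 without bufotalin replicate 2, and 1 of 6 without both libraries that stood apart; without bufotalin replicate 3 it was 2 of 6. DESeq2 gave an adjusted p to 7 members and also called 0. It had 4 at an unadjusted p under 0.05, counted over all 29 members. In CPM, the same 3 members lay lower in every bufotalin library than in any control library, against 19.5% of tested miRNAs that did so; none of the 5 lay higher without overlap, against 7.76% of tested miRNAs.

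miR-522-3p had 168, 137 and 163 CPM in bufotalin libraries, against 226, 437 and 295 CPM in control libraries. The groups did not overlap, and control replicate 2 was the highest. Its log2 fold change was -0.85 (SE 0.31, 95% interval -1.55 to -0.15), with an adjusted p of 0.118 by edgeR and 0.0652 to 0.566 over the alternatives. Without bufotalin replicate 2 and control replicate 3 it was -0.61.

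miR-1283 had 225, 140.4 and 133.1 CPM in bufotalin libraries, against 298, 354 and 266 CPM in control libraries. All 3 bufotalin values were below all 3 control values, and bufotalin replicate 1 came nearest to the controls. The log2 fold change was -0.75 (SE 0.29, 95% interval -1.38 to -0.11) and the adjusted p 0.122 by edgeR, with 0.110 to 0.596 over the alternatives. Without both libraries that stood apart it was -0.56.

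The group of hairpins that includes MIR519C, MIR522 and MIR519A1 could give the third of these, miR-519c-5p. It had 21.9, 12.3 and 22.1 CPM in bufotalin libraries, against 29.8, 61.4 and 37.4 CPM in control libraries. Again no bufotalin library reached a control library. The log2 fold change was -0.99 (SE 0.40, 95% interval -1.88 to -0.10), with an adjusted p of 0.150 by edgeR and 0.0993 to 0.629 over the alternatives.

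The most abundant member went the other way without passing the test. miR-516a-5p had 539.1, 568 and 353 CPM in bufotalin libraries, against 331, 549 and 159 CPM in control libraries. The groups overlapped, since control replicate 2 lay above bufotalin replicates 1 and 3, and replicate 3 was the lowest of each group. Its log2 fold change was 0.72 (SE 0.33, 95% interval -0.01 to 1.46), with an adjusted p of 0.198 by edgeR and 0.110 to 0.719 over the alternatives. Without both libraries that stood apart it was 0.37. miR-519a-3p had 19.8, 18.6 and 12.6 CPM in bufotalin libraries, against 16.9, 52.6 and 8.85 CPM in control libraries, and its groups overlapped. Its log2 fold change was -0.33 (95% interval -1.41 to 0.74), and without control replicate 2 it was 0.33.

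**Figure D2:**
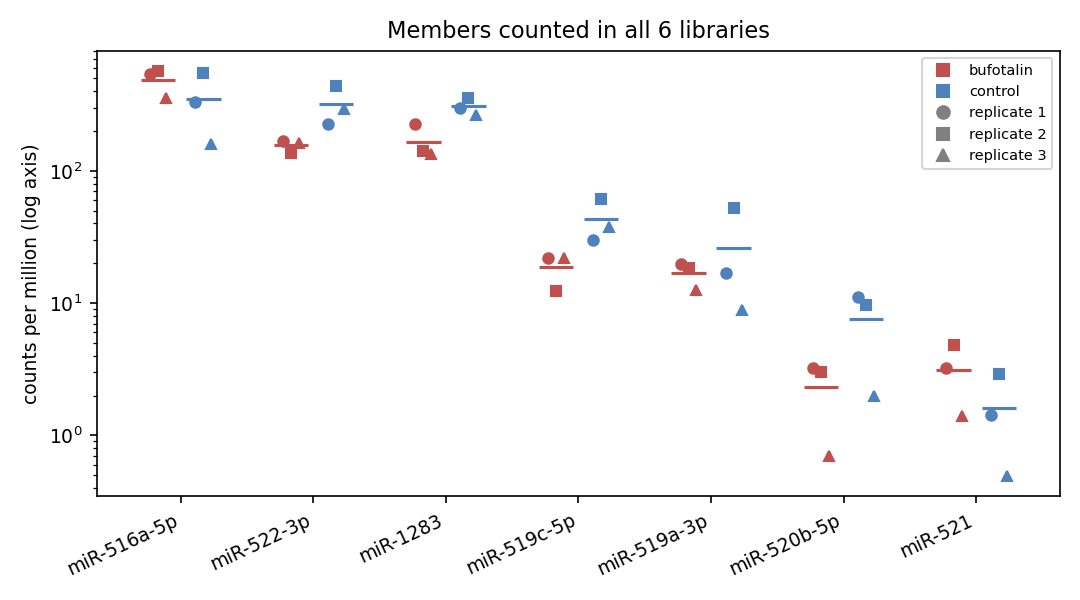
CPM on a log axis of the 7 members with counts in all 6 libraries, with 3 bufotalin libraries (red) left of 3 control libraries (blue); horizontal lines are group means. miR-522-3p, miR-1283 and miR-519c-5p show no overlap between the groups, and miR-516a-5p reaches 568 CPM with bufotalin and 549 CPM in control.

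Over the 5 tested members the median log2 fold change was -0.75, beside -0.04 over all 477 tested miRNAs, and 4 of the 5 were below 0. With library totals in place of TMM scaling the 2 medians were -0.88 and -0.20, so the difference between them stayed near that of the first scaling. The intervals leave room for no change of miR-516a-5p and miR-519a-3p, and they do not show that these 2 were unaffected.

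**Figure D3:**
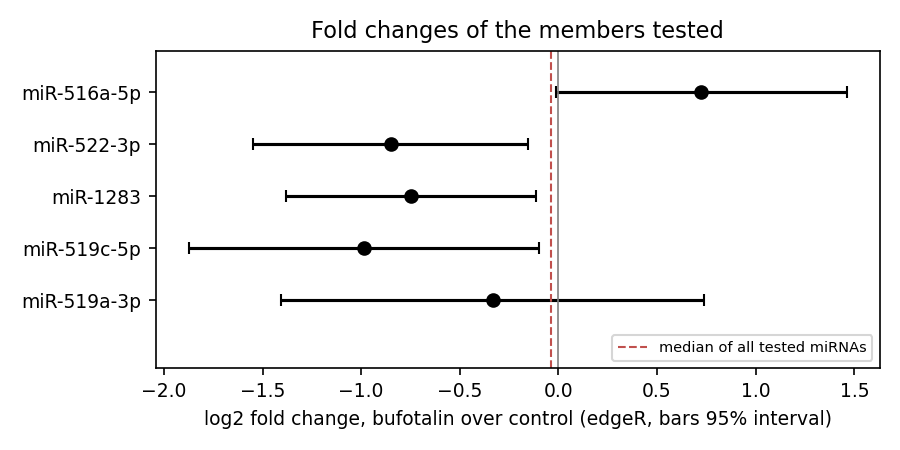
Log2 fold change of bufotalin over control by edgeR for the 5 members tested, with bars for the 95% interval; the dashed line marks the median of all tested miRNAs, -0.04. The intervals of miR-522-3p, miR-1283 and miR-519c-5p lie below 0, and none of the 5 passed adjustment.

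Ratios among members within a library need no scaling between libraries. They are given as a description, since they were chosen after the values were seen and the test below could not call any. The ratio of miR-516a-5p counts to miR-1283 counts was 2.40, 4.04 and 2.66 in bufotalin libraries, against 1.11, 1.55 and 0.597 in control libraries. The ratio of miR-516a-5p to miR-522-3p was 3.21, 4.14 and 2.17 in bufotalin libraries, against 1.46, 1.26 and 0.538 in control libraries. For each of these, every bufotalin library lay above every control library, and the geometric mean ratio was 2.93-fold and 3.07-fold higher. With each library left out in turn, the first kept a log2 difference of at least 1.17 and the second of at least 1.18, both reached without control replicate 3. The ratios to miR-519c-5p and miR-519a-3p also showed no overlap, with geometric mean ratios 3.51-fold and 1.85-fold higher with bufotalin. The ratio to miR-520b-5p showed none either, but it rests on 2 counts of miR-520b-5p in bufotalin replicate 3, and no fold is given. The ratio to miR-521 overlapped between groups.

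An exact two-sided permutation test gave p = 0.10 for each of the 5 ratios without overlap and p = 0.30 for miR-521. The value of 0.10 is the smallest that 3 against 3 libraries allow, and it lies above the threshold for a call. No ratio could therefore have passed, whatever its values, and the test decides nothing about them. The 6 ratios share miR-516a-5p and were chosen after the values were seen. Adjusted over them, the exact permutation p became 0.12 for the 5 and 0.30 for miR-521. miR-522-3p, miR-1283 and miR-519c-5p already lay lower with bufotalin without overlap, while miR-516a-5p had a log2 fold change above 0. Their ratios are thus not separate evidence. How often ratios of other miRNAs showed no overlap was not counted. Summed over the 28 members other than miR-516a-5p, the cluster had 442, 320 and 339 CPM in bufotalin libraries and 584, 923 and 639 CPM in control libraries, a sum that was also chosen after the values were seen.

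**Figure D4:**
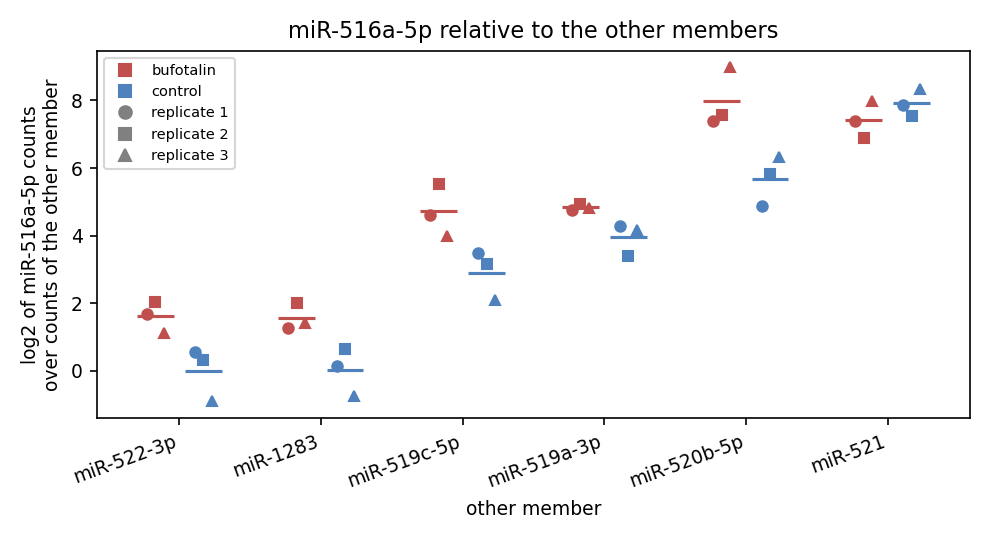
Log2 ratio of miR-516a-5p counts to the counts of each of 6 other members within the same library, with 3 bufotalin libraries (red) left of 3 control libraries (blue) and lines for group means. Bufotalin libraries lie above control libraries without overlap for 5 of the 6, all but miR-521, and the miR-520b-5p point of bufotalin replicate 3 rests on 2 counts.

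Levels of members with few counts could not be compared at this depth. miR-520b-5p had 6, 10 and 2 counts in bufotalin libraries and 47, 20 and 4 in control libraries, which overlapped in CPM (0.701 to 3.21 against 1.97 to 11.2). miR-521 had 6, 16 and 4 counts with bufotalin and 6, 6 and 1 in control. miR-516b-5p had 0, 6 and 8 counts with bufotalin and 1, 0 and 22 in control, so 1 control library decided its mean. These 3 did not pass the filter on low counts.

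The remaining 21 members averaged under 1 CPM, and most of their counts came from 1 library. They summed to 68 counts, of which 39, or 57.4%, were in control replicate 3. That library held 18 of the 21 names, while the others held 2, 5 and 6 of them (bufotalin replicates 1, 2 and 3) and 1 and 6 (control replicates 1 and 2). The one with at least 10 counts, miR-520a-3p, had 1, 0 and 3 counts in bufotalin libraries and 0, 0 and 8 in control libraries. No low member exceeded 3 counts outside control replicate 3. The same library held 70.8 CPM of miR-372-3p, against 0 to 1.40 CPM elsewhere. miR-371 and miR-372 hairpins lie just downstream of the cluster and are active in pluripotent cells. Whether that library held other cells or RNA was not tested.

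**Figure D5:**
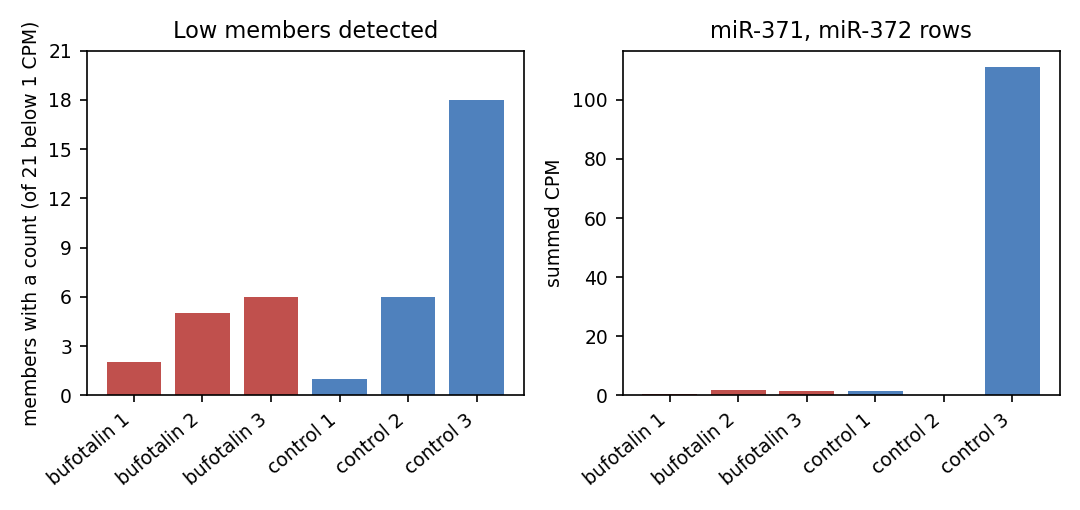
Left, number of the 21 members below 1 CPM that had a count in each library. Right, summed CPM of the 5 rows of miR-371 and miR-372, where paired miR-371a and miR-371b rows may hold the same reads. Bufotalin libraries are red and control libraries blue; control replicate 3 holds 18 of the 21 names and 111 CPM.

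Families that share a seed differed widely in level. miR-519d-3p, with 2 counts in all, has the seed AAAGUGC of the miR-17 family. The 6 rows of that family outside the cluster summed to 15199 CPM, as a mean over the libraries. miR-520a-3p and miR-520d-3p, with 13 counts together, share AAGUGCU with miR-302 and miR-372 rows, which had 163 counts. Summed over these rows, the group means were 1.57 CPM with bufotalin and 24.4 CPM in control, led by miR-372-3p in control replicate 3. The imprinted miRNA cluster on chromosome 14, also known from placenta, had 50 rows in the table. It summed to 73.3, 95.8 and 132 CPM in bufotalin libraries, against 50.5, 164 and 90.9 CPM in control libraries, and each library had more of the chromosome 19 cluster. Of its 7 tested rows none was called, and their median log2 fold change was 0.19.

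Protein-coding genes were listed by the authors only where they had selected them as different on these samples, so counts of called genes there are no independent evidence. limma was run on log2(FPKM + 1) where a gene averaged 0.5 FPKM or more, with Benjamini-Hochberg adjustment. Among the 4273 genes tested it called 44.3% higher, 48.8% lower and 93.2% in either direction. Their median log2 fold change of 0.13 became 0.33 when libraries were scaled to equal medians. Of 71 listed trophoblast genes, chosen with earlier results known, 28 were in the table and 16 were tested; the other 12 averaged under 0.5 FPKM. Of the tested genes, 13 rose and 3 fell. In 8 of the 16 the mean of 1 group was under 0.5 FPKM, in control for 7 and with bufotalin for CYP11A1, so they passed the filter through the group where they were high, and the tally is no support for a direction. Their directions were the same after scaling to equal medians.

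CGA, the shared alpha subunit of chorionic gonadotropin and pituitary glycoprotein hormones, had 523.996, 320 and 344 FPKM in bufotalin libraries, against 83.7, 75.3 and 77.6 FPKM in control libraries. Its log2 fold change was 2.28 (SE 0.18; adjusted p 4.99e-06 by limma), and the groups were far apart. The 5 tested pregnancy-specific glycoprotein genes, also on chromosome 19, passed the filter only through the bufotalin libraries, so their direction was fixed by it; PSG1 had 2.75 ± 1.07 FPKM with bufotalin, against 0.0141 ± 0.0133 FPKM in control. These genes are close copies of each other, so their reads are uncertain between them. PHLDA2, an imprinted placental growth gene, had 46.2 ± 6.84 FPKM with bufotalin and 21.2 ± 7.86 FPKM in control, and TEAD4, a trophectoderm transcription factor, 22.2 ± 1.33 FPKM with bufotalin and 14.4 ± 2.44 FPKM in control (SD, n = 3 each, here and below). ADAM12, a placental metalloprotease, rose by 0.48 on the log2 scale. The 3 that fell were PEG10, an imprinted gene needed for the placenta (4.40 ± 0.716 FPKM with bufotalin, 14.2 ± 1.53 in control), CYP11A1, which makes pregnenolone (0.409 ± 0.0918 with bufotalin, 2.40 ± 0.377 in control), and the transcription factor TFAP2A (18.5 ± 5.63 with bufotalin, 34.3 ± 7.86 in control). ERVV-2, an envelope gene of retroviral origin on chromosome 19, rose by 0.48, a call that ended in 2 of the 11 other settings.

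Of 48 listed genes for miRNA processing and DNA methylation, 14 were in the table and tested, and 10 rose, 3 fell and UHRF1 did not pass; 92.9% were thus called, a share near the 93.2% of all tested genes and so no result about the list. UHRF1 had a log2 fold change of 0.30, and it was called after scaling to equal medians. Among miRNA factors, AGO2, the Argonaute that binds guide miRNAs, had 38.1 ± 9.11 FPKM with bufotalin and 22.1 ± 2.08 FPKM in control. TARBP2, a partner of Dicer, had 17.6 ± 2.02 FPKM with bufotalin and 11.5 ± 0.278 FPKM in control, and TUT7, which adds uridines to miRNA precursors, 15.1 ± 2.77 FPKM with bufotalin and 9.62 ± 0.702 FPKM in control. DDX5 and KHSRP, RNA-binding factors of precursor processing, rose by 0.53 and 0.49 on the log2 scale. Among genes of methylation and imprints, the DNA methyltransferase DNMT3A had 2.57 ± 0.599 FPKM with bufotalin and 5.02 ± 0.0423 FPKM in control. Its cofactor DNMT3L had 0.204 ± 0.204 FPKM with bufotalin and 1.61 ± 0.551 FPKM in control, and passed the filter only through control. ZNF445, which protects imprints, had 3.15 ± 0.621 FPKM with bufotalin and 5.20 ± 1.09 FPKM in control, a call that ended without the total RNA libraries of bufotalin replicate 2 and control replicate 3 together. TET3, which oxidizes methylcytosine, had 18.5 ± 2.17 FPKM with bufotalin and 7.37 ± 0.455 FPKM in control, and TRIM28, a corepressor at imprints, rose by 0.54. The rises of TNRC6A, TENT4B and SRRT ended in 6, 6 and 7 of the 11 other settings.

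Within 150 kb of the cluster the mRNA table listed 2 genes, named after their values were seen. MYADM, a membrane protein gene 49.5 kb downstream (chromosome 19, 53811962 to 53876435, GRCh38), had 74.8, 79.4 and 74.4 FPKM in bufotalin libraries, against 30.6, 31.1 and 22.7 FPKM in control libraries. Its log2 fold change was 1.42 (SE 0.14; adjusted p 1.28e-05 by limma). ZNF331, a zinc finger gene in an imprinted region 86.4 kb upstream, had 10.5, 13.7 and 8.11 FPKM with bufotalin and 5.76, 5.81 and 10.3 FPKM in control, which overlapped, and it did not pass (0.52, adjusted p 0.063 by limma). It was called without control replicate 3 (0.77), without bufotalin replicate 3 (0.70) and after scaling to equal medians (0.69). It was also called without bufotalin replicate 2 and control replicate 3 together (0.59). None of the 536 transcripts of the lncRNA table overlapped the cluster.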

How the data were processed

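Small RNA counts per mature miRNA were deposited by the authors, and beside them TPM values that matched a count's share of its column, times 1000000 (CPM). FPKM values per gene and per lncRNA transcript were deposited for features the authors selected. The submitters' processing notes name DESeq2 1.20.0, featureCounts 1.5.0-p3, HISAT2 2.0.5, fastp and CASAVA 1.8, with GRCh38; which tool made which values was not given in the sources used here. CPM was computed from the counts and the column totals. Replicates of a group differed by far more than counting error (chi-square per degree of freedom 263 to 644).

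Counts of the whole table were fitted with edgeR 4.0.16 (TMM, filterByExpr, robust quasi-likelihood), with DESeq2 1.42.0 as an alternative, and FPKM with limma 3.58.1 (trend, robust), in R 4.3.3. The p-values of edgeR, DESeq2 and limma were adjusted over all features that each tested, with a threshold of 0.05, and the fits were tested on simulated data. Exact permutation p-values were adjusted over the 6 ratios only. The total RNA depth was unknown. Members and lists were chosen with earlier results of these data known. Named by rule were members averaging at least 1 CPM or holding at least 10 counts, up to 3 miRNAs of each other list by CPM, and up to 10 called genes of each mRNA list by smallest p. Other members and genes named, among them ADAM12, PHLDA2, TFAP2A, ERVV-2, UHRF1, TNRC6A, TENT4B and SRRT, were chosen after their values were seen. Sequences and hairpin positions are from RefSeq (GRCh38.p14).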

Additional observations from a re-analysis of the deposited data

How the results depend on the processing

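No member was called in any of the 11 other settings. Their median log2 fold change ran from -1.03 with no low-count filter to -0.63 without the 2 libraries that stood apart, a setting added after seeing the data. The difference in the cluster's summed percent of counts, bufotalin minus control, was -0.021 and ran from -0.034 to -0.00032 with each library left out, nearest 0 without control replicate 2. miR-519a-3p had a log2 fold change of 0.33 without control replicate 2 and of -0.69 without control replicate 3, the extremes with each library left out; the cause was not tested. The log2 difference of the ratio of miR-516a-5p ran from 1.17 to 1.86 for miR-1283 and from 1.18 to 1.898 for miR-522-3p with each library left out. Over the table, 27 miRNAs were called, against 55 with DESeq2 and 6 to 40 with each library left out (13, 8 and 6 without bufotalin replicates 1, 2 and 3). With the replicate number as a block the count was 3 and no member was called. Whether the numbers pair the libraries cannot be told from 3 libraries a group. Deviations of same-numbered miRNA libraries correlated at 0.16, 0.04 and 0.40, and 2 of the 3 bufotalin libraries correlated best with their own number. For the mRNA libraries the correlations were -0.02, 0.03 and -0.05. Trophoblast genes called were 27 of 28 with no FPKM minimum, which tests more genes, against 16 of 16. Depth limits the members under the limit of 3 counts.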
